A study of Mus musculus with 4 samples.

Results

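Immediate early genes and heat shock genes were followed in single cells of the fetal mouse penis. The set held 35 genes, listed by name for their function, 28 immediate early genes and 7 heat shock genes, among 32287 features listed for each library, and each of the 35 had counts in all 4 libraries. The 28 immediate early genes were 7 AP-1 genes, 6 EGR and KLF genes, 3 NR4A nuclear receptors, 6 other early response genes, 4 feedback inhibitors and 2 C/EBP factors. Penises were collected at embryonic day 16.5 from male embryos and profiled as 2 DTA- libraries and 2 DTA+ libraries. Embryos of both groups carried the Rosa-LSL-DTA allele, a diphtheria toxin gene behind a stop cassette. Only DTA+ embryos also carried *Nr5a1-Cre*, which removes the stop cassette in cells that express or once expressed *Nr5a1* and so kills that lineage. DTA- embryos, labelled wild type by the submitters, therefore carried the silent toxin allele without Cre. The same Cre is active in the testes and adrenal glands and ablates cells there too, so DTA+ embryos differed from DTA- embryos in more than the genital lineage. The sources used here do not say whether a library held 1 penis or several, so the spread between replicates may hold technical as well as animal differences. The question asked of these genes was which cells carried them and how the difference between replicates of 1 genotype compared with the difference between genotypes.

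Immediate early genes are transcribed within minutes of a stimulus without new protein synthesis, because their promoters are already open and their activators only need to be phosphorylated. They encode mainly transcription factors and their own inhibitors, and their short-lived messages fall again soon after the stimulus ends. Heat shock genes are driven by HSF1 when unfolded proteins accumulate and encode chaperones that refold or hold those proteins. Both programs are known to be switched on while solid tissue is digested into single cells, and both are also used by intact embryonic tissue. The penises here were put into ice-cold medium with dispase, collagenase and DNase and homogenized before loading. The paper itself gives no temperature or time for the digestion. No library of undigested tissue was analysed here, so induction during digestion and expression in the embryo cannot be told apart.

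Promoter sequences were searched for the elements that these gene groups are known to use. RefSeq promoter windows on GRCm38.p6, from 250 bases before to 50 bases after the transcription start, matched 28 of the 35 genes, and the most upstream window of each gene was searched on both strands. The heat shock element, searched as GAANNTTC or TTCNNGAA, occurred in 4 of 5 matched heat shock genes and in 2 of 23 matched immediate early genes, *Jun* and *Fosl2*, against 15.1% of all 32817 windows. The cyclic AMP response element TGACGTCA occurred in 2 of 23 immediate early genes, *Dusp1* and *Btg2*, against 1.79% of all windows. The CArG box, the serum response factor motif, occurred in 1 of 23, *Zfp36*, against 1.63% of all windows. *Egr1* was among the genes without a matched window, and elements more than 250 bases before the start were not searched. A gene without a match here may therefore still carry the element. The promoters of 5 genes are printed because they show these elements in genes followed below, as the 250 bases before the start, 5′ to 3′ on the transcribed strand, with the matched element in capitals. *Hspa1a* (chr17:34972157-34972406), *Hspa1b* (chr17:34959239-34959488), *Hsph1* (chr5:149636337-149636586), *Dusp1* (chr17:26508473-26508722) and *Zfp36* (chr7:28379229-28379478) all lie on the minus strand.
Hspa1a, heat shock element: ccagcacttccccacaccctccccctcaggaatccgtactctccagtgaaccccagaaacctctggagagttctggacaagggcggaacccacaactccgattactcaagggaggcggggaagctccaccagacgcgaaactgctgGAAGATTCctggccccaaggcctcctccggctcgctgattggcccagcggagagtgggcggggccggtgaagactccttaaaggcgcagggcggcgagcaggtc
Hspa1b, heat shock element: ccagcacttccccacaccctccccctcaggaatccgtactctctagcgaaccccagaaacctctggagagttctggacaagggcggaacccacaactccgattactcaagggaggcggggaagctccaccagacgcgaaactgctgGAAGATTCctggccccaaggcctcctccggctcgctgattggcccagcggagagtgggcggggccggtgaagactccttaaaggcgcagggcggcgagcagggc
Hsph1, heat shock element: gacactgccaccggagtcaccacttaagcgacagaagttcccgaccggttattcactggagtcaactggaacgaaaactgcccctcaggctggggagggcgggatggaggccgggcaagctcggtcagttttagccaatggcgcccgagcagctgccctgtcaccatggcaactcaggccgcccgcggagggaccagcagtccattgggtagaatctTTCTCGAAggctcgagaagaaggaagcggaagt
Dusp1, cyclic AMP response element: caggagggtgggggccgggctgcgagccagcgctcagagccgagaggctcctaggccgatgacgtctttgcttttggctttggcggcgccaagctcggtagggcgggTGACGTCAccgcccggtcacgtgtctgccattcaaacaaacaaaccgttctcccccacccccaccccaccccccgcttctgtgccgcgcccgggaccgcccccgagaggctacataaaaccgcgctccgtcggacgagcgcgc
Zfp36, CArG box: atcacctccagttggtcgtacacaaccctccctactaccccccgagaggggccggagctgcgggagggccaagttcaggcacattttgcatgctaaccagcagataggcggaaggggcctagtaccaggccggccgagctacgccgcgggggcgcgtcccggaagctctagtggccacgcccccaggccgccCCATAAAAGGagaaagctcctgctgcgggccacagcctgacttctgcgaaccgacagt
The *Hspa1a* and *Hspa1b* promoters were identical at 247 of 250 positions and carried the same heat shock element. These neighbouring genes encode near-identical inducible HSP70 chaperones, and 47.9% of 96-base windows of the *Hspa1a* transcript also occurred in *Hspa1b*, but none of those in its last 500 bases did, the end that a 3′ library reads.

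One DTA- library stood apart before any gene was compared. After removal of cells with 1000 or fewer or 7500 or more UMIs (unique molecular identifiers, each standing for 1 captured message), with over 25% mitochondrial counts, or with hemoglobin counts over set limits, 31132 of 47040 barcodes were kept, 6573 and 7874 in DTA- replicates 1 and 2 and 7875 and 8810 in DTA+ replicates 1 and 2. DTA- replicate 1 had the highest median of UMIs per kept cell, 4700, against 4077 in DTA- replicate 2 and 3551 and 3560 in the DTA+ libraries, and 21.4% of its barcodes reached the upper limit against 9.98 to 11.2% in the others. The paper lists more reads per cell and a higher saturation for its first control library than for its other libraries. Mitochondrial counts were level across libraries, between 5.76 and 5.94%. The libraries shared 238 barcode sequences in pairs, out of 46802 distinct sequences. Results below are given with and without DTA- replicate 1 where it decided them. Cells fell into 27 clusters, built without the stress genes, of which 18 matched listed marker genes and were merged into 14 named populations, and the other 9, with 13608 cells, are called by their leading genes.

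Immediate early genes made up 1.03% of all UMIs in DTA- replicate 1, 2.05% in DTA- replicate 2, 1.81% in DTA+ replicate 1 and 1.67% in DTA+ replicate 2. DTA- replicate 1 was thus lowest and DTA- replicate 2 highest, with both DTA+ libraries between them. The mean was 1.54% ± 0.717 (SD, n = 2) in DTA- and 1.74% ± 0.102 (SD, n = 2) in DTA+, a difference of 0.202 percentage points that became -0.305 without DTA- replicate 1 and 0.709 without DTA- replicate 2. The sign of the genotype difference therefore depended on which DTA- library was used. An exact two-sided permutation test gave p = 1, and with 2 libraries a genotype no such test can fall below 0.333. Counting error was small beside these gaps, since the widest 95% Wilson interval of a library's share spanned 0.00968 percentage points.

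Heat shock genes behaved differently. Their share was 0.196% and 0.207% in DTA- replicates 1 and 2 and 0.177% and 0.160% in DTA+ replicates 1 and 2. Both DTA+ libraries lay below both DTA- libraries, by 0.0326 percentage points between means (0.202% ± 0.00828 against 0.169% ± 0.0120, SD, n = 2 each), and the exact permutation p was 0.333, the smallest this design allows. Leaving out 1 DTA- library could not turn this sign, since the genotypes did not overlap. The difference was -0.0385 without DTA- replicate 1 and -0.0268 without DTA- replicate 2. Of all single genes 24.1% had both DTA+ libraries below both DTA- libraries in all kept cells, in CPM scaled by edgeR. *Hspa8*, *Hsp90aa1* and *Dnaja1* held 42.6%, 27.2% and 23.0% of the heat shock UMIs, and *Hspa1a* and *Hspa1b* 1.83% and 0.852%. The share therefore mostly reflects the abundant chaperones and says little about the inducible HSP70 genes.

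The same contrast was found cell type by cell type in the 19 populations with at least 20 cells in every library. The immediate early share was lowest in DTA- replicate 1 in 16 of the 19 and higher in DTA- replicate 2 than in DTA- replicate 1 in 18 of the 19, with a ratio between 0.959 and 3.13. Both DTA+ libraries were above both DTA- libraries in 2 populations and below them in 0. For heat shock genes, both DTA+ libraries were below both DTA- libraries in 13 of the 19 populations and above them in 1, the endothelium-like cells. How often genes in general had these orders within populations is not reported here. All populations of a library come from 1 digestion, so these counts are not independent repeats. Shares within populations were not matched for UMIs per cell, which differed between libraries, and the heat shock share rose with depth, as given below.

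**Figure D1:**
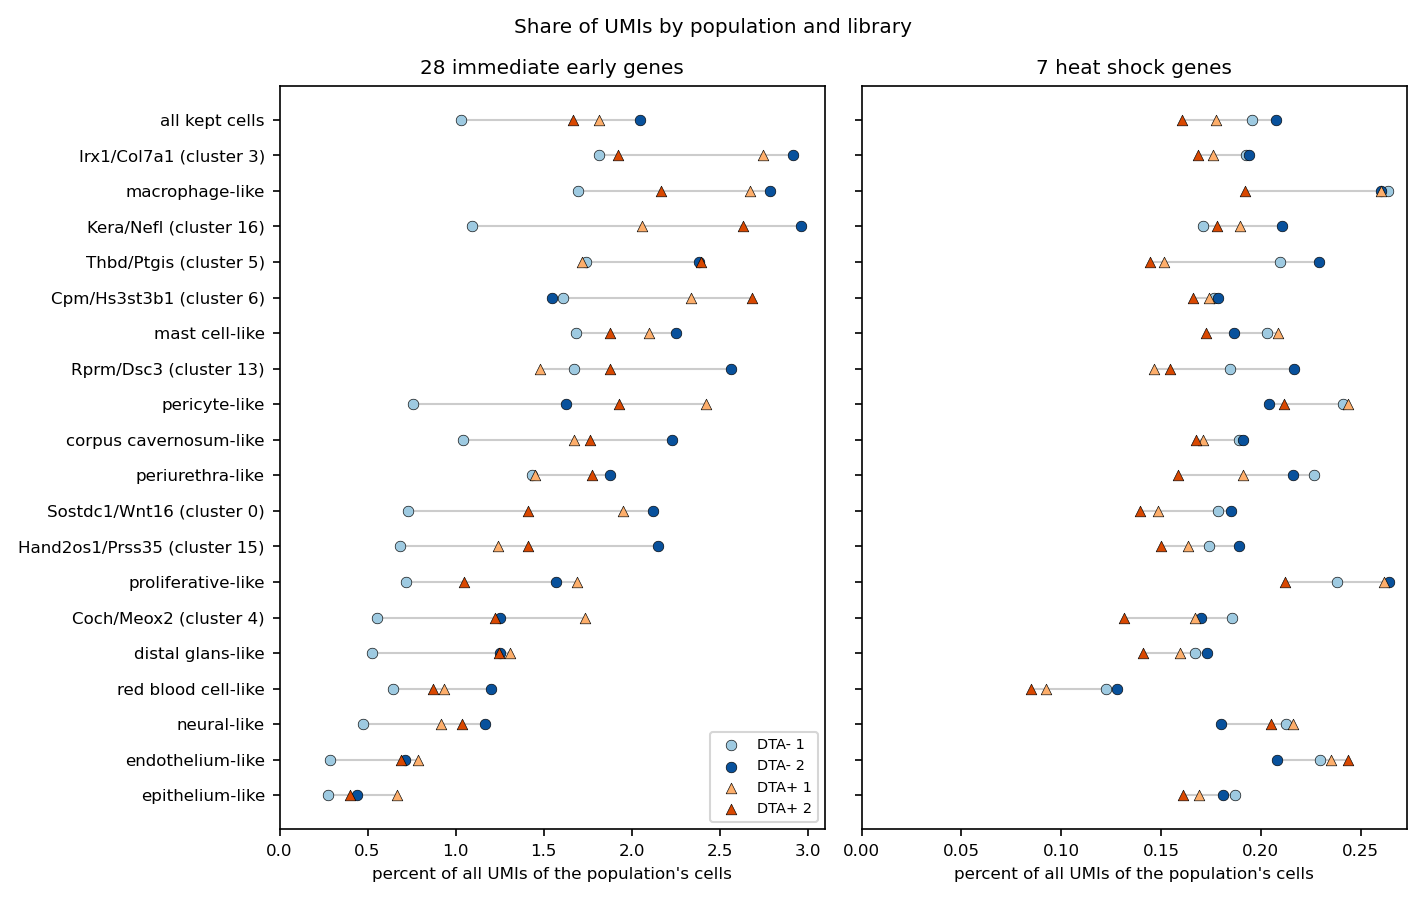
Share of all UMIs taken by the 28 immediate early genes (left) and the 7 heat shock genes (right), in percent, for all kept cells and for each of 19 populations, 1 point per library (circles DTA-, triangles DTA+; the grey line joins the lowest and highest library). On the left the palest circle, DTA- replicate 1, is lowest in 16 of the 19 populations, and on the right both triangles lie below both circles in 13 of the 19.

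Cell types differed widely in the immediate early share. It was highest in 2 kinds of cells, immune cells and a few mesenchymal clusters, and lowest in epithelium-like and endothelium-like cells. The *Irx1*/*Col7a1* cluster had 1.81%, 2.91%, 2.75% and 1.92% in DTA- replicates 1 and 2 and DTA+ replicates 1 and 2. Macrophage-like cells had 1.69%, 2.78%, 2.67% and 2.17% in the same order, and the *Kera*/*Nefl* cluster 1.09%, 2.96%, 2.06% and 2.63%. These ranges overlapped one another, so their order is not resolved. At the other end, epithelium-like cells had 0.274%, 0.438%, 0.665% and 0.401%, and endothelium-like cells 0.284%, 0.715%, 0.786% and 0.692%. Every library of these last 2 populations lay below every library of the *Irx1*/*Col7a1* cluster and of the macrophage-like cells. Levels between populations are described without a test.

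Individual genes marked different carriers. Of the 28 immediate early genes, 8 had their highest mean level in mast cell-like cells and 7 in macrophage-like cells, and 15 had their lowest in epithelium-like cells. These immune populations are small, with 39 to 65 mast cell-like and 69 to 77 macrophage-like cells a library. For *Nr4a1* mast cell-like cells were highest in only 1 library. For *Nr4a2* (mast cell-like) and *Klf2* (macrophage-like) the highest population held in 2 libraries. Levels here are CPM, UMI counts scaled to a total of 1000000 over the population's cells, and because a 3′ library counts a message once whatever its length they can be set side by side between genes. *Atf3*, a stress-induced AP-1 partner, stood at 927, 1697, 1986 and 1576 in the macrophage-like cells of the 4 libraries in the order above, against at most 725 in any library of the next population, pericyte-like cells. *Ier3*, an early survival gene, stood at 1405, 2105, 2742 and 2104 in mast cell-like cells, with at most 880.5 in the next, the *Rprm*/*Dsc3* cluster. *Klf6*, a zinc finger factor of injury responses, was highest in macrophage-like cells at 770.3, 1356, 1675 and 1238, and *Cebpb*, a C/EBP factor of macrophage activation, at 1170.5, 1382, 1139 and 1121. For these 4 genes the highest population was the same in all 4 libraries. *Egr3* was highest in mast cell-like cells of each library, at 118, 413, 259.9 and 391.

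The mesenchyme, 28253 of the kept cells, made up most of the cells, and the most abundant genes peaked in mesenchymal clusters. *Fos* was highest on average in the *Irx1*/*Col7a1* cluster, at 3289, 6041, 6381 and 4198 in the 4 libraries, and lowest in epithelium-like cells, at 401.4, 642, 1423 and 681. The same population was highest for *Fos* in only 2 of the 4 libraries, and the *Kera*/*Nefl* cluster, with a mean of 4624 and a range from 1734 to 6088, could not be separated from it. *Btg2*, an antiproliferative early gene, also peaked in the *Irx1*/*Col7a1* cluster, at 1958, 3013, 3269.6 and 2039. *Ier2* and *Socs3* were highest on average in the *Cpm*/*Hs3st3b1* cluster, at 1944 and 507. *Jund* and *Klf4* were highest in the *Thbd*/*Ptgis* cluster, at 2799 and 1077. Among the chaperones, *Hsp90aa1* was highest in proliferative-like cells in all 4 libraries, at 839.6, 1004, 927 and 762.

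A few genes made up most of the signal. *Fos* had the highest level in each library, and the 3 highest genes by mean level, *Fos*, *Jun* and *Jund*, held 43.6% of all immediate early UMIs. AP-1 genes as a group held 57.1%, EGR and KLF genes 16.4%, the other early genes 15.1%, feedback inhibitors 7.68%, NR4A receptors 2.00% and C/EBP factors 1.67%.

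AP-1 is the dimer of FOS and JUN proteins that binds the TGA-containing sites of many growth and stress genes. *Fos* (chromosome 12, 85473890 to 85477273, plus strand, GENCODE vM21 on GRCm38) stood at 1752 in DTA- replicate 1, 4515 in DTA- replicate 2, 4328 in DTA+ replicate 1 and 3892 in DTA+ replicate 2. *Fosb*, its close relative, stood at 546, 1768, 1277 and 1158 in the same order. Both were lowest in DTA- replicate 1 and highest in DTA- replicate 2, a ratio of 2.58 for *Fos* and 3.24 for *Fosb*. *Jun* (chromosome 4, 95049034 to 95052222, minus strand) stood at 1469, 2291, 1659 and 1669, *Junb* at 565, 1025, 1061 and 876, and *Jund*, the most constitutive of the 3, at 1383, 2082, 1760 and 1823. The 2 DTA- libraries enclosed both DTA+ libraries for *Jun* and *Jund*, and for *Junb* only DTA+ replicate 1 lay just above them. *Fosl2*, a slower FOS member, stood at 58.4, 104, 96.6 and 80.1. *Atf3* had the widest gap of the AP-1 genes, at 22.4, 110.3, 60.3 and 49.1, a 4.91-fold difference between DTA- replicates. None of the 7 passed the test between genotypes in all kept cells. The log2 fold change of DTA+ over DTA- was 0.32 ± 0.38 (SE) for *Fos*, 0.00 ± 0.46 for *Fosb*, -0.25 ± 0.19 for *Jun* and -0.35 ± 0.62 for *Atf3*.

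EGR and KLF factors are zinc finger activators and repressors, of which *Egr1* is the classic partner of *Fos* downstream of ERK signaling. *Egr1* stood at 816, 2091, 1998 and 1814, so DTA- replicate 1 alone was low and the other 3 libraries were alike. *Klf4* stood at 315, 612.5, 381 and 416, *Klf6* at 135, 219, 159 and 149, and *Klf2*, a shear stress factor, at 313, 469.5, 387 and 352. For these 3 KLF genes the DTA+ libraries lay between the DTA- libraries. *Egr2* and *Egr3* were rare, with at most 12.4 and 26.1 in any library.

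NR4A receptors are ligand-independent nuclear receptors induced through cyclic AMP and calcium. *Nr4a1* stood at 111, 301, 264 and 252, with the low DTA- replicate 1 again apart. *Nr4a2* (chromosome 2, 57106830 to 57124003, minus strand) was the exception among the NR4A genes, at 29.0 and 66.6 in DTA- and 130.2 and 86.6 in DTA+, so both DTA+ libraries lay above both DTA- libraries. Its log2 fold change of 1.11 ± 0.38 (SE) did not pass the edgeR test (adjusted p = 0.262). *Ier3*, *Ier5* and *Socs3*, given below, had the same order of libraries by genotype in these levels, which are not scaled by edgeR. Of all genes 48.8% did not overlap between genotypes, in either direction, in CPM scaled by edgeR. *Nr4a3* ranged from 4.49 to 27.2.

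The other early genes and the feedback genes were also lowest in DTA- replicate 1, *Myc* excepted, mostly with smaller steps. *Ier2* stood at 783, 998, 994 and 997, *Ier3* at 134, 228, 237 and 257, and *Ier5* at 87.6, 93.1, 97.6 and 117. *Btg2* stood at 694, 1312, 1408 and 1022. *Gadd45b*, a stress sensor upstream of p38 kinase, was the only immediate early gene named here whose DTA+ replicates were further apart than 2-fold, at 53.6, 127, 174 and 77.4. Of the feedback genes, *Dusp1*, the phosphatase that switches off MAP kinases, stood at 253, 479.7, 476 and 472, and *Socs3*, the inhibitor of JAK and STAT signaling, at 164, 283, 295.5 and 340.3. *Nfkbia*, the inhibitor of NF-kB, stood at 129.5, 239.9, 164 and 142, and *Zfp36*, which destabilizes AU-rich messages, at 237, 594, 400.4 and 365. For *Socs3* and *Ier3* DTA+ replicate 2 was the highest library, and for *Nfkbia* and *Zfp36* DTA- replicate 2 was.

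C/EBP factors serve the acute phase response. *Cebpb* stood at 108, 169, 161 and 136. *Cebpd* (chromosome 16, 15887286 to 15891031, plus strand), a direct target of the glucocorticoid receptor in many tissues, stood at 132 and 196 in DTA- and 101 and 92.9 in DTA+. *Cebpd* and *Myc*, the growth regulator, were the 2 immediate early genes with both DTA+ libraries below both DTA- libraries, *Myc* at 10.99, 15.4, 6.66 and 8.01. Of all genes 24.1% had that order, in CPM scaled by edgeR. The log2 fold changes of *Cebpd* and *Myc*, -0.83 ± 0.19 and -0.92 ± 0.21 (SE), were the closest of the listed genes to the threshold without passing it (edgeR adjusted p = 0.128 and 0.129 in all kept cells, 0.0641 and 0.0717 in mesenchyme).

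Heat shock genes did not share the order of the immediate early genes. *Hspa8*, the constitutive HSC70, stood at 856, 831, 768 and 699.6 in the 4 libraries, and *Hsp90aa1*, the inducible HSP90, at 509, 618, 457 and 431. *Dnaja1*, an HSP40 co-chaperone, stood at 429, 478, 423 and 376. In these 3 abundant chaperones both DTA+ libraries lay below both DTA- libraries, with log2 fold changes from -0.42 to -0.26. Of the 35 listed genes 6 had that order, against 24.1% of all genes. *Hspa1a* (chromosome 17, 34969190 to 34972156, minus strand) stood at 60.0, 29.0, 31.1 and 15.4, and *Hspa1b* (34956436 to 34959238 on the same strand) at 31.4, 8.89, 15.5 and 7.45. The inducible HSP70 genes were thus highest in the library where immediate early genes were lowest. *Hsph1* ranged from 22.8 to 29.0 and *Dnajb1* from 44.1 to 80.1. The log2 fold change was below 0 for all 7 heat shock genes, from -1.01 to -0.26, and none passed (smallest edgeR adjusted p = 0.204, for *Hsp90aa1*).

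**Figure D2:**
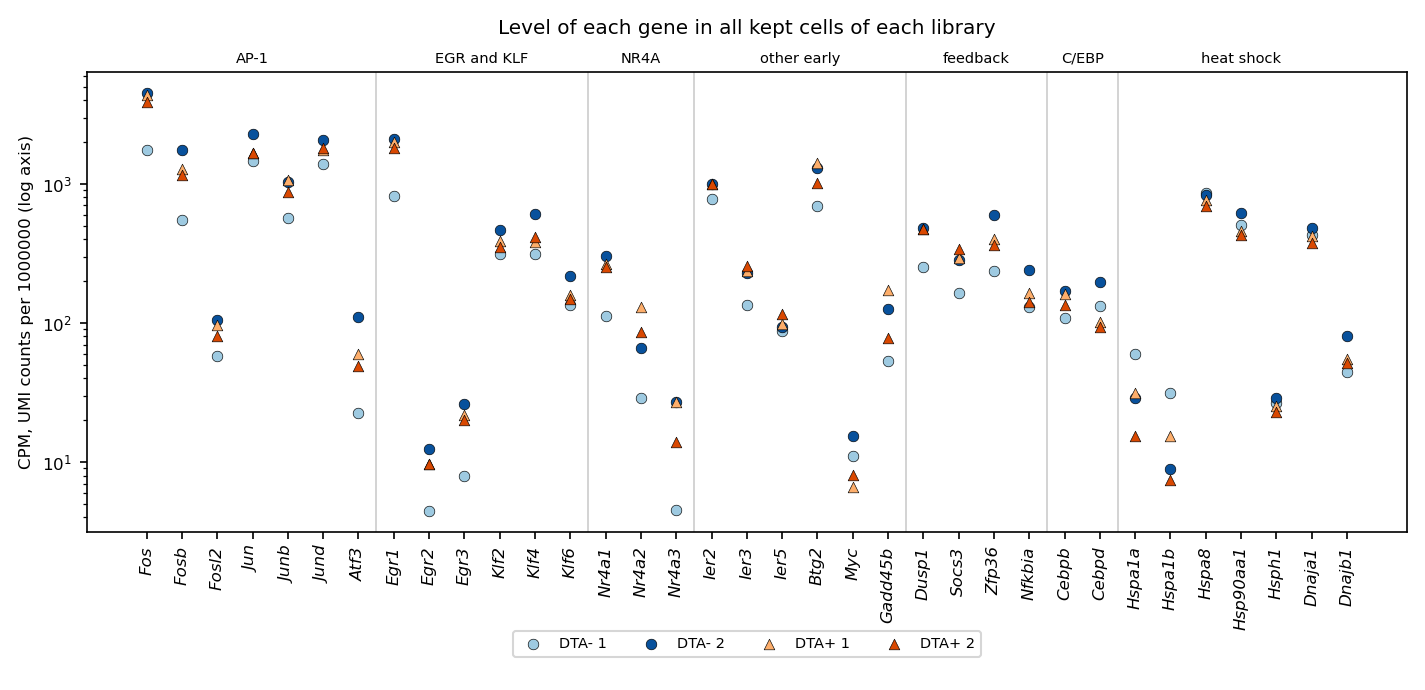
Level of each of the 35 genes in all kept cells, in CPM on a log axis, grouped by role, 1 point per library (circles DTA-, triangles DTA+). DTA- replicate 1, the palest circle, is the lowest point for 26 of the 28 immediate early genes and the highest for *Hspa1a*, *Hspa1b* and *Hspa8*.

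The gap between the 2 DTA- replicates was wider for these genes than for genes in general. Counts and gaps in this paragraph use CPM scaled by edgeR, unlike the levels printed above. Taking genes whose mean reached 20 CPM, 21 of 30 listed genes were at least 1.5-fold apart between the DTA- replicates, against 4.14% of all 6228 such genes. In 20 of the 30 DTA- replicate 2 was the higher (3.11% of all genes), and in 1, *Hspa1a*, DTA- replicate 1 was (1.03% of all genes). Between the DTA+ replicates 3 of the 30 were that far apart, against 1.72% of all genes. On the log2 scale the median gap of the 28 immediate early genes was 0.89 between DTA- replicates and 0.15 between DTA+ replicates, and over all 15977 genes tested it was 0.19 and 0.12. For the 7 heat shock genes it was 0.26 and 0.17. The difference between genotypes exceeded both replicate gaps for 7 of 35 listed genes, against 35% of all genes, and the genotypes did not overlap for 9 of 35, against 48.8%.

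**Figure D3:**
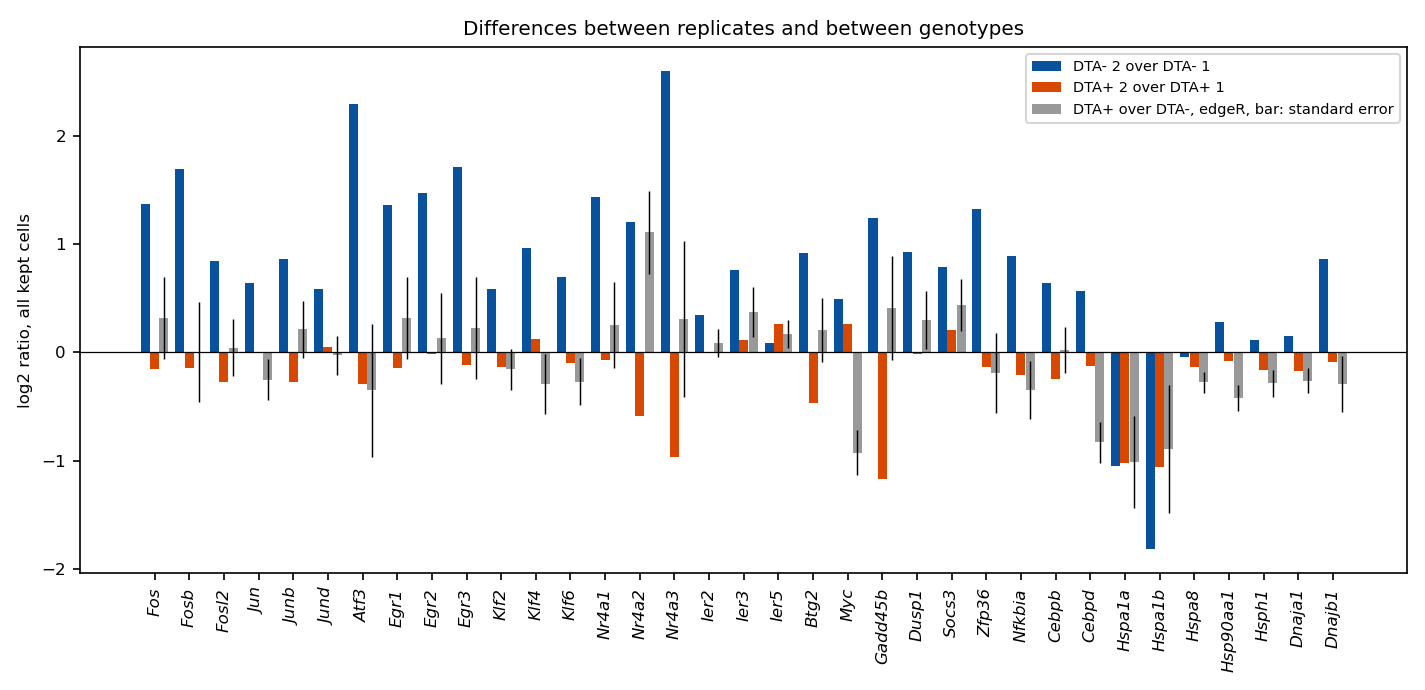
Log2 ratio of DTA- replicate 2 over replicate 1 (blue), of DTA+ replicate 2 over replicate 1 (orange) and of DTA+ over DTA- from edgeR (grey, with its standard error) for each of the 35 genes in all kept cells. The blue bars exceed the orange ones in size for 31 of the 35 genes. In CPM scaled by edgeR the median gap of the immediate early genes is 0.89 against 0.15.

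Depth of the cells moved with the libraries, so shares were also compared in cells of like depth. In cells of at least 2500 and under 5000 UMIs the immediate early share was 0.969% and 1.99% in DTA- replicates 1 and 2 and 1.76% and 1.68% in DTA+ replicates 1 and 2. DTA- replicate 1 was lowest in all 4 depth classes, including cells with 7500 or more UMIs that were otherwise left out (1.00% against 1.68 to 2.07%). The heat shock share rose with depth in each library, and DTA+ replicate 2 was lowest in all 4 classes. Both DTA+ libraries lay below both DTA- libraries in every class under 7500 UMIs. In cells with 7500 or more UMIs DTA+ replicate 1, at 0.236%, lay above DTA- replicate 1, at 0.230%. In barcodes over the mitochondrial limit, also left out, DTA- replicate 1 was again lowest, at 0.391% against 0.710 to 0.956%. What set this library apart was not tested.

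**Figure D4:**
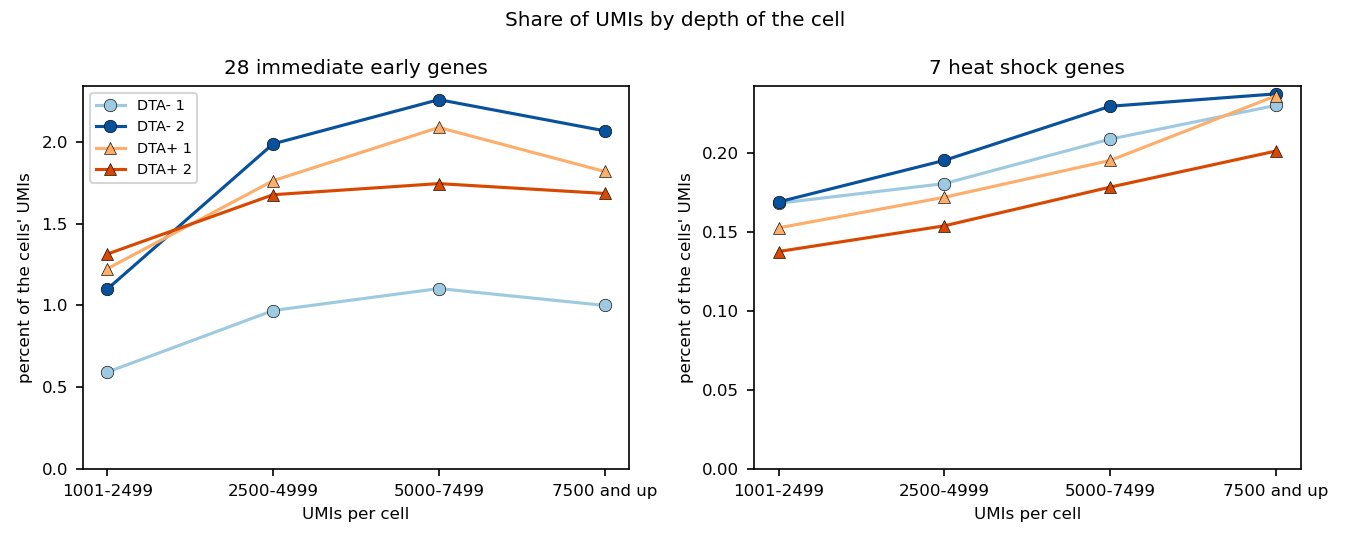
Share of UMIs of the 28 immediate early genes (left) and the 7 heat shock genes (right), in percent, in cells grouped by their number of UMIs, 1 line per library (circles DTA-, triangles DTA+). The palest line on the left, DTA- replicate 1, lies under the other 3 in every class, while on the right it lies next below DTA- replicate 2 in the first 3 classes and DTA+ replicate 2 is lowest throughout.

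The low library had fewer cells with these messages and fewer of them per cell. After thinning every cell to 1000 UMIs, cells held a mean of 9.85, 19.3, 17.0 and 16.1 immediate early UMIs in the 4 libraries, with medians of 6, 17, 15 and 14. Cells with none at all made up 10.8% of DTA- replicate 1 and 4.18%, 4.79% and 5.13% of the others. The top 10% of cells by immediate early level held 34.2% of these UMIs in DTA- replicate 1 and 25.3 to 27.3% in the others. At this depth *Fos* was seen in 52.1%, 76.9%, 77.9% and 75.6% of cells (71.9%, 85.9%, 86.1% and 85.4% without thinning). In epithelium-like cells of the same libraries it was seen in 24.5%, 27.7%, 47.4% and 27.96% after thinning, the lowest type by mean level. *Atf3* was seen in 30.4%, 47.4%, 58.4% and 51.4% of macrophage-like cells and in 0.973 to 5.14% of mesenchymal cells. *Hspa1a* was seen in 3.83%, 2.57%, 2.79% and 1.25% of all cells, against 1.82%, 0%, 3.25% and 3.23% in epithelium-like cells. The epithelium-like shares rest on 93 to 154 cells a library, and no order between them and all cells is read from these values. Mast cell-like cells held 0 *Hspa1a* UMIs in all 4 libraries, which, at 3 counts, allows up to 16.1 CPM in any of them.

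Immediate early genes were seen in the same cells. In mesenchyme thinned to 1000 UMIs a cell, *Egr1* was seen in 62.0%, 82.0%, 78.3% and 77.6% of cells with *Fos* and in 17.0%, 22.3%, 20.5% and 19.96% of cells without it. *Nr4a1* was seen in 14.3%, 23.9%, 21.8% and 22.5% of cells with *Fos* and in 2.73 to 4.86% of cells without it. Cells with *Hspa1a* had *Fos* more often too, in 67.2%, 91.2%, 87.4% and 90% against 53.2%, 78.2%, 79.5% and 76.5% of the others. *Hspa8* differed less between cells with and without *Hspa1a*, at 52.5% against 53.3% in DTA- replicate 1 and 62.6% against 52.1% in DTA- replicate 2. These shares describe cells of the same libraries and carry no test.

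Between genotypes, no listed gene passed the test in the penis as a whole. Of the 35, 0 passed the edgeR quasi-likelihood test in all kept cells, where 0.488% of 15977 genes did, and 0 in mesenchyme, where 1.26% of 15197 did. At an unadjusted p under 0.05 there were 5 of 35, against 15.1% of all genes. DESeq2 called 2 of the 35 in either set of cells, both lower in DTA+, and its share over all genes is not reported here. Without DTA- replicate 1 the median log2 fold change of the listed genes was -0.33 in all kept cells and -0.33 in mesenchyme. Without DTA- replicate 2 this median was 0.37 in all kept cells and 0.46 in mesenchyme. *Nr4a2* and *Cebpd* kept 1 direction whichever library was left out, as did *Ier3*, *Ier5*, *Socs3*, *Hspa1a*, *Hspa8*, *Hsp90aa1* and *Dnaja1*. All of these but *Hspa1a* had both DTA+ levels on 1 side of both DTA- levels, as printed above. With that order an omission can hardly turn the sign, so the kept direction is no further support. Of all genes 48.8% did not overlap between genotypes in all kept cells, in CPM scaled by edgeR. In these sums, fewer cells of a type and less RNA per cell cannot be told apart.

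Within populations, calls were found in both directions and in few places. Of 611 tests of listed genes in 19 populations, 34 were higher and 21 lower in DTA+ (2.98% of all 152691 tests were called, 1.45% higher and 1.53% lower), in 8 populations, and 11 populations had no call. Of the 55 calls, 39 passed with each DTA- library left out in turn and 26 with each of the 4 libraries left out in turn. All but 1, *Atf3* in the *Thbd*/*Ptgis* cluster, kept their sign throughout. A fit with a library left out has 1 library in that genotype and takes its spread from the pair of the other genotype. Passing it is therefore no measure of the spread between replicates of the genotype left with 1 library. Among the 35 genes 25 were called at least once. The 10 never called were *Fosb*, *Jun*, *Jund*, *Egr2*, *Egr3*, *Ier2*, *Zfp36*, *Hspa8*, *Hsph1* and *Dnajb1*.

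**Figure D5:**
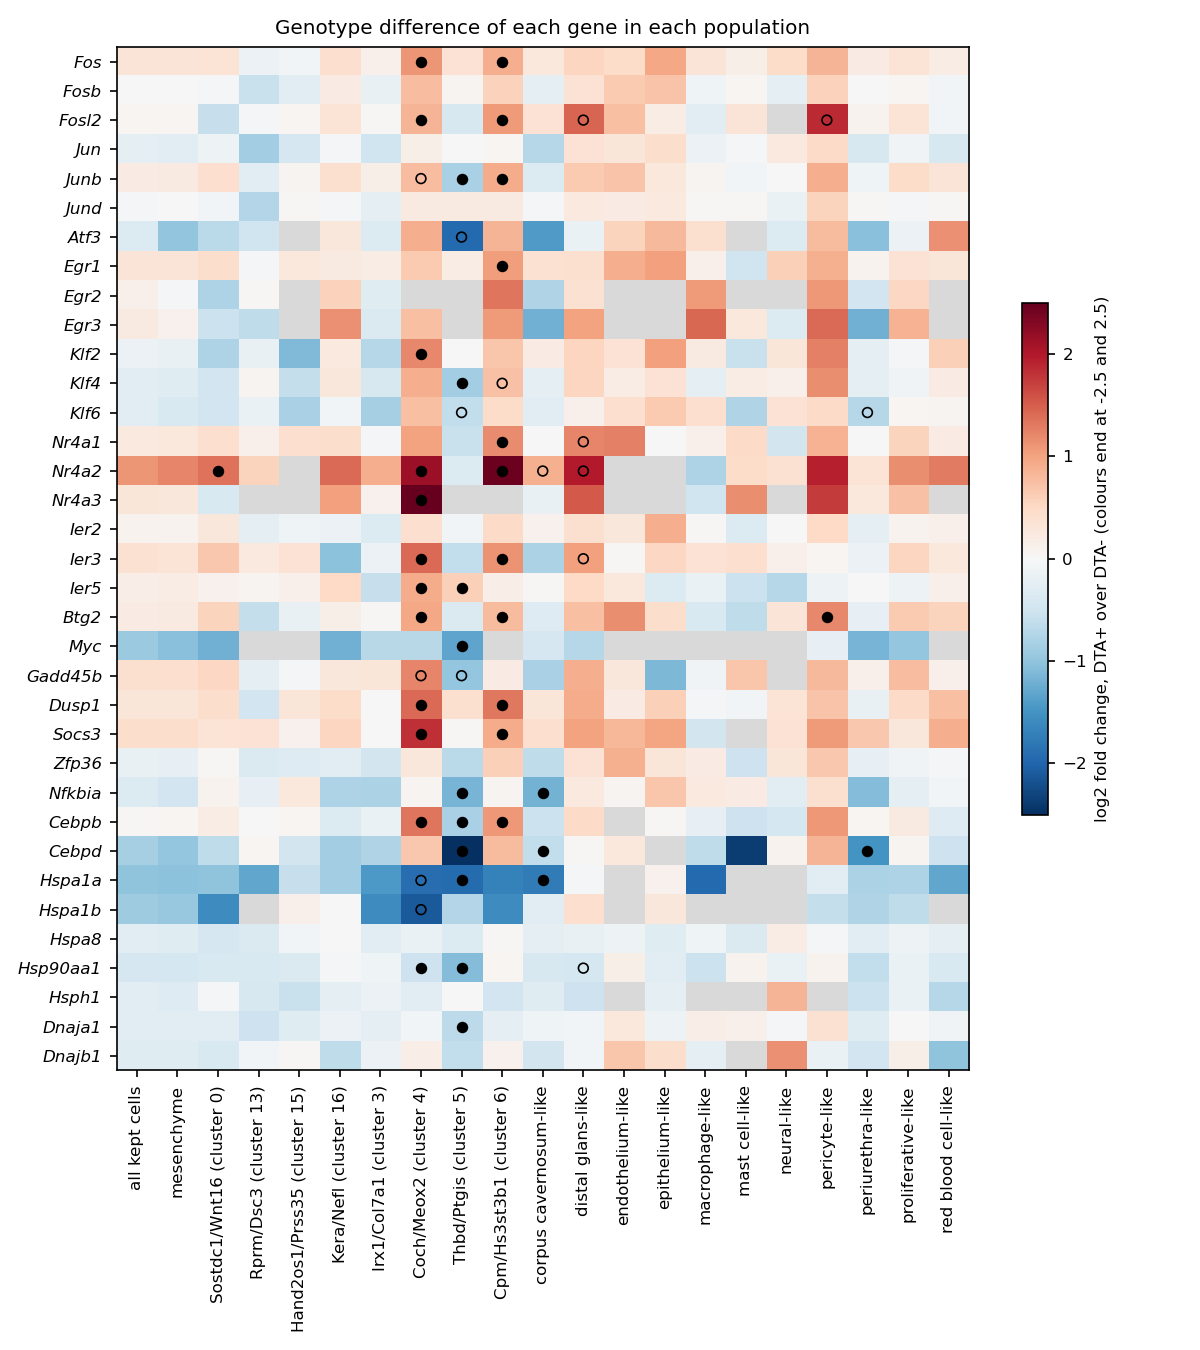
Log2 fold change of DTA+ over DTA- (colour, red higher and blue lower in DTA+) for each of the 35 genes in all kept cells, in mesenchyme and in 19 populations, with grey for genes too low to test. Dots mark the 55 calls at adjusted p under 0.05, and most lie in 3 columns, the *Coch*/*Meox2*, *Thbd*/*Ptgis* and *Cpm*/*Hs3st3b1* clusters. Filled dots also passed with each DTA- library left out in turn, in fits whose spread comes from the DTA+ pair alone.

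The *Coch*/*Meox2* cluster had the most calls, with 13 genes higher and 3 lower in DTA+ of 34 tested, against 8.2% of all genes called there (4.21% higher and 3.98% lower). Its immediate early share was 0.553% and 1.25% in DTA- and 1.74% and 1.22% in DTA+. *Nr4a2* rose from 10.3 and 33.8 CPM in DTA- to 118 and 74.5 in DTA+, a log2 fold change of 2.13 ± 0.32 (SE, edgeR adjusted p = 0.000563). *Socs3* rose from 43.4 and 83.9 to 248 and 211 (1.83 ± 0.22, adjusted p = 0.000105). *Dusp1* rose from 83.4 and 162 to 371 and 296 (1.42 ± 0.21, adjusted p = 0.000471). In all 3, picked from the called genes, the DTA+ libraries lay above both DTA- libraries, although DTA- replicate 1 was again the lowest. Among called genes this order adds no support. *Nr4a3*, *Ier3*, *Cebpb*, *Gadd45b*, *Klf2*, *Fos*, *Btg2*, *Ier5*, *Fosl2* and *Junb* were the other 10 that rose, by 0.78 to 2.93 on the log2 scale. *Fos* itself stood at 796 and 2491 in DTA- and 4098 and 3046 in DTA+. *Hspa1a* and *Hspa1b* fell, from 83.4 and 16.7 to 21.5 and 4.38 and from 55.0 and 9.53 to 10.5 and 4.38, and both calls were lost without DTA- replicate 1 (adjusted p = 0.726 and 0.812), as were those of *Junb* and *Gadd45b*. Without DTA+ replicate 1 the calls of *Klf2* (log2 fold change 0.45, adjusted p = 0.418), *Btg2*, *Nr4a3*, *Junb* and *Gadd45b* were lost. *Hsp90aa1* fell from 462.5 and 505 to 373 and 312 (-0.53 ± 0.14, adjusted p = 0.0215), a call lost without DTA+ replicate 2 (adjusted p = 0.240). Of the 16 calls 12 passed with each DTA- library left out in turn and 8 with each of the 4 left out. Of the 10 leading genes that define this cluster 4 also differed between genotypes, and their part in these results was not tested.

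In the *Cpm*/*Hs3st3b1* cluster 12 genes rose and 0 fell, against 2.93% of all genes called (1.81% higher and 1.12% lower). This was 1 of the 3 populations where DTA- replicate 1 was not the lowest, with an immediate early share of 1.61% and 1.55% in DTA- and 2.34% and 2.68% in DTA+. *Nr4a2* rose from 24.3 and 31.7 to 125 and 164 (2.45 ± 0.23, edgeR adjusted p = 4.74e-05). *Dusp1* rose from 323 and 304 to 705 and 852 (1.33 ± 0.15, adjusted p = 0.00034), and *Egr1* from 1069 and 1326 to 2379 and 2505 (1.05 ± 0.13, adjusted p = 0.00058). For *Fos* the libraries stood at 2808 and 3686 in DTA- and 5146 and 6823 in DTA+ (0.90 ± 0.15, adjusted p = 0.00367). In each of these 4 both DTA+ libraries lay above both DTA- libraries. They were picked from the called genes, so this order is no further support for the calls. *Nr4a1*, *Ier3*, *Cebpb*, *Fosl2*, *Junb*, *Socs3*, *Btg2* and *Klf4* rose by 0.72 to 1.18. Of the 12 calls 11 passed with each DTA- library left out in turn, *Klf4* being lost without DTA- replicate 2, and 9 with each of the 4 left out, *Cebpb*, *Fosl2* and *Klf4* being lost without DTA+ replicate 2. With the cells of highest doublet score left out 7 genes rose, and the share of all genes called then is not reported here. The doublet caller had not worked, as given below, so these cells are not known to be doublets. Here 5 of the 10 leading genes of the cluster differed between genotypes, and their part was not tested.

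The *Thbd*/*Ptgis* cluster went the other way, with 12 genes lower and 1 higher in DTA+ of 32 tested, against 11.8% of all genes called (6.36% lower and 5.39% higher). *Cebpd* fell from 450.2 and 626 to 84.7 and 82.4, the largest drop of a listed gene in any population (-2.73 ± 0.19, edgeR adjusted p = 2.33e-08). *Hsp90aa1* fell from 446 and 650 to 252 and 280.2 (-1.09 ± 0.17, adjusted p = 0.000417). *Klf4* fell from 1134 and 1613 to 775 and 786 (-0.86 ± 0.15, adjusted p = 0.00117). The DTA+ libraries were close together and below both DTA- libraries for these 3, which were picked from the called genes, so this order adds no support. *Nfkbia* fell from 118 and 256 to 71.7 and 98.6 and *Hspa1a* from 54.4 and 25.7 to 17.3 and 6.08. *Junb*, *Cebpb*, *Dnaja1*, *Klf6*, *Myc*, *Gadd45b* and *Atf3* also fell, by 0.61 to 1.94. *Atf3* rested on DTA- replicate 2, at 42.5 and 362 in DTA- and 25.1 and 79.0 in DTA+, and its log2 fold change was 0.28 without it, while the calls of *Gadd45b* and *Klf6* were lost without it. *Ier5* was the 1 gene that rose, from 178 and 154 to 249.8 and 271, and its call was lost without either DTA+ library (adjusted p = 0.0934 and 0.223). The calls of *Dnaja1* and *Klf6* were also lost without either DTA+ library, and those of *Cebpb*, *Junb*, *Myc* and *Gadd45b* without DTA+ replicate 1. Of the 13 calls 5 passed with each of the 4 libraries left out, those of *Cebpd*, *Hsp90aa1*, *Klf4*, *Nfkbia* and *Hspa1a*. The total immediate early share did not follow these genes, at 1.74% and 2.38% in DTA- and 1.72% and 2.39% in DTA+. Of the 10 leading genes of the cluster 3 differed between genotypes.

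The other 5 populations with calls had 14 between them. In periurethra-like cells, the mesenchyme around the urethra, *Cebpd* fell from 279 and 396 to 111 and 134 (-1.50 ± 0.20, edgeR adjusted p = 0.00344) and *Klf6* fell by 0.72 on the log2 scale, 2 calls against 3.13% of all genes. *Klf6* was not called without DTA- replicate 1, DTA- replicate 2 or DTA+ replicate 1. In corpus cavernosum-like cells (8.18% of all genes called) *Hspa1a*, *Nfkbia* and *Cebpd* fell, *Nfkbia* from 191 and 396 to 158 and 121, and *Nr4a2* rose. The *Nr4a2* call was lost without DTA- replicate 1 (adjusted p = 0.0581) and without DTA+ replicate 1 (log2 fold change 0.40 against 0.90, adjusted p = 0.594), and the *Cebpd* call without DTA+ replicate 1 (adjusted p = 0.454) and without DTA+ replicate 2 (adjusted p = 0.126). In distal glans-like cells (3.24%) *Nr4a2* rose from 17.0 and 18.6 to 39.7 and 99.9 (1.99 ± 0.33, adjusted p = 0.00537), with *Fosl2*, *Nr4a1* and *Ier3*, while *Hsp90aa1* fell. None of these 5 calls passed without DTA- replicate 1, although the log2 fold changes were then 1.92 for *Nr4a2*, 1.28 for *Fosl2* (1.46 with all libraries), 1.24 for *Nr4a1* (1.22), 0.68 for *Ier3* (1.017) and -0.53 for *Hsp90aa1* (-0.44), and the *Hsp90aa1* call was lost with any of the 4 libraries left out. In pericyte-like cells, with only 21 cells in DTA- replicate 1, *Fosl2* and *Btg2* rose (0.204% of all genes), *Btg2* from 546 and 901 to 2002 and 1489, and *Fosl2* was lost without DTA- replicate 1 (adjusted p = 0.0587) and *Btg2* without DTA+ replicate 1 (adjusted p = 0.180). In the *Sostdc1*/*Wnt16* cluster (2.57%) *Nr4a2* rose from 19.3 and 47.3 to 85.0 and 96.3 (1.36 ± 0.28, adjusted p = 0.0136). With a library left out this log2 fold change ranged from 0.89 to 2.16. Of the cluster's 10 leading genes 5 differed between genotypes, and in the clusters merged as periurethra-like 3 of 10 and 8 of 10 did. The clusters of distal glans-like cells had 1 each, those of corpus cavernosum-like cells 1 and 2, and pericyte-like cells 0. The part of these leading genes in the calls was not tested.

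Some genes were called in a single direction wherever they were called. All populations come from the same libraries, so calls of a gene in several of them are not independent repeats. *Nr4a2* was called higher in 5 populations and lower in 0, of 16 tested, *Fosl2* higher in 4 of 18, and *Ier3* and *Btg2* higher in 3 of 19 each. *Cebpd*, *Hspa1a* and *Hsp90aa1* were each called lower in 3 and higher in 0, of 18, 16 and 19 tested. Over all genes 1.45% of population tests were called higher and 1.53% lower. Several of these calls, among them those of *Fosl2* and *Nr4a2* in distal glans-like cells, were lost with a library left out, as given above. *Junb*, *Klf4*, *Gadd45b* and *Cebpb* were called in both directions, higher in the *Coch*/*Meox2* or *Cpm*/*Hs3st3b1* cluster and lower in the *Thbd*/*Ptgis* cluster.

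Whether the genotype difference itself differed between cell types was tested with periurethra-like cells against 2 others, as an interaction. Leading genes of the periurethra-like clusters differed between genotypes, as given above, and their part here was not tested. Against corpus cavernosum-like cells 2 of 35 listed genes passed, where 2.51% of 11958 genes did. *Gadd45b* had a log2 fold change 0.98 ± 0.22 (SE) higher in periurethra-like cells (edgeR adjusted p = 0.0265), with 16.7, 28.2, 32.6 and 19.1 CPM there and 89.4, 173, 112 and 51.7 in corpus cavernosum-like cells. *Cebpd* had one 0.87 ± 0.18 lower (adjusted p = 0.0187), so its fall was deeper in periurethra-like cells. Neither passed without DTA- replicate 2, and *Gadd45b* did not pass without DTA+ replicate 2. Against epithelium-like cells 1 gene passed, where 0.383% of 10704 genes did. *Nfkbia* was 1.75 ± 0.31 lower (adjusted p = 0.00195), at 98.9 and 181 in DTA- and 59.4 and 74.9 in DTA+ in periurethra-like cells and 83.5, 103, 127 and 197 in epithelium-like cells, and this held without DTA- replicate 1 and not without any of the other 3 libraries.

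Related genes outside the 35 were tested from 3 further lists. Of 42 further immediate early genes 1 fell and 0 rose in all kept cells, against 0.488% of all genes called, and 2 fell and 1 rose in mesenchyme, against 1.26%. Among those in mesenchyme *Phlda1*, a growth and stress induced gene, fell by 1.24 on the log2 scale, and *Txnip*, the thioredoxin inhibitor, rose by 1.14. Of 28 further chaperones 1 fell in either set, against the same shares of all genes, *Hspb8*, a small heat shock protein, by 1.51 and 1.58. None of 17 upstream factors, such as the serum response and heat shock factors, passed in either. In the *Coch*/*Meox2* cluster 8 of 34 further immediate early genes rose and 0 fell (4.21% and 3.98% of all genes), in the *Cpm*/*Hs3st3b1* cluster 6 of 33 rose and 0 fell (1.81% and 1.12%), and in the *Thbd*/*Ptgis* cluster 2 of 28 rose and 10 fell (5.39% and 6.36%).

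Of the 35 genes 5 are also textbook targets of the glucocorticoid receptor, *Dusp1*, *Cebpb*, *Cebpd*, *Nfkbia* and *Zfp36*. In the 19 populations they had 4 higher and 6 lower calls in 93 tests, against 30 higher and 15 lower in 518 tests of the other 30. Over all genes 1.45% of population tests were called higher and 1.53% lower. *Cebpd* alone gave 3 of the 6 lower calls. Log2 fold changes were above 0 in 52 of the 93 tests and in 285 of the 518. *Fkbp5*, a defining glucocorticoid target that is not among the 35, stood at 76.6 and 77.6 in DTA- and 12.1 and 12.7 in DTA+, scaled by edgeR, and fell by 2.63 on the log2 scale (edgeR adjusted p = 0.00178). Of 4 textbook targets tested outside the 35, *Fkbp5* alone was called in all kept cells, and 2 were called lower in mesenchyme. The shares of all genes called there were 0.488% and 1.26%. The adrenal glands, the source of glucocorticoids, are ablated in DTA+ embryos, and the paper reports that the testes were markedly smaller too. Loss of adrenal and of testis hormones cannot be told apart in this design. The part of either in the fall of *Fkbp5* or in the calls of the listed genes was not tested.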

How the data were processed

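Cells of dissociated embryonic day 16.5 penises were profiled by 10x 3′ single-cell RNA sequencing, with 2 DTA- and 2 DTA+ libraries. Deposited files held raw UMI counts per gene and barcode, which the authors made with Cell Ranger on mm10 (version 4.0.0 in the submitters' notes). Total counts ranged from 50779551 to 73577028 UMIs a library. A barcode was kept if it had over 1000 but under 7500 UMIs, no more than 25% mitochondrial counts, and no more than 25% and 50% alpha and beta globin counts. Scrublet called only 2 cells, so it has not worked, and the highest scores were left out only as an alternative. Cells were clustered with Seurat 5.3.0 on 1941 variable genes, leaving out 59 stress genes, and clusters were named from listed markers (at least 3 enriched in the cluster). A cluster left unnamed is called by its leading genes.

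Counts were summed per library and population and tested with edgeR 4.0.16 (quasi-likelihood test, TMM scaling, filterByExpr, genotype only, Benjamini-Hochberg over all genes of the population, threshold 0.05), in R 4.3.3, for populations with at least 20 cells in each library. Levels are CPM (UMI counts scaled to 1000000) without TMM scaling, and fold changes come from the edgeR fit. Replicate gaps, and counts of genes set a fold apart or not overlapping with their shares of all genes, used CPM with TMM scaling. In simulated counts for all kept cells, the test found 61.7% of 200 genes set to differ by 1 log2 unit, among 15977 genes, and 47.0% in periurethra-like cells among 11030. The median number of false calls was 5 and 3. Simulated replicates were given the spread of genes in general. In all kept cells the median DTA- replicate gap was 0.89 for the immediate early genes, against 0.19 over all genes. These rates therefore do not carry over to the immediate early genes. Shares of UMIs were compared by an exact permutation test. Intervals are 95% Wilson intervals and, as any limit from counts, cover counting error only.

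Genes named in full were the 12 of highest mean level, those called in at least 2 populations and the 3 with the widest DTA- replicate gap where the mean reached 20 CPM, 26 in all. Other genes were named as the rest of their role, after their values were seen. Members, lists and tests were chosen with earlier results of these data known. Alternatives were DESeq2 1.42.0, the edgeR likelihood ratio test, other scalings and filters, a replicate block, each library left out, no upper UMI limit, thinned cells, clustering with stress genes or at other resolutions, and doublet scores. The authors' cell annotation was not used here, and some results are not reported here.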

Additional observations from a re-analysis of the deposited data

Results flagged for a closer look

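The differences of 3 genes were picked out because the DTA+ minus DTA- change of a listed gene differed between 2 cell populations by an interaction test in edgeR. *Gadd45b* had a log2 fold change 0.98 higher in periurethra-like than in corpus cavernosum-like cells (SE 0.22, adjusted p = 0.0265). Without DTA- replicate 2 its adjusted p was 0.189 and without DTA+ replicate 2 it was 0.0691. *Cebpd* had a log2 fold change that differed by -0.87 in the same pair of populations (SE 0.18, adjusted p = 0.0187), and without DTA- replicate 2 its adjusted p was 0.207. *Nfkbia* had one that differed by -1.75 between periurethra-like and epithelium-like cells (SE 0.31, adjusted p = 0.00195), with an adjusted p of 0.0568 without DTA- replicate 2, 0.180 without DTA+ replicate 1 and 0.158 without DTA+ replicate 2. All 3 kept their sign with each library left out.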

How the results depend on the processing

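With 2 libraries a genotype, the log2 fold change of 17 of the 26 genes named in full had opposite signs without DTA- replicate 1 and without DTA- replicate 2 in all kept cells. A lone library was then assumed to vary like the others. Against 0 listed genes called in all kept cells and 0 in mesenchyme, DESeq2 called 2 and 2, the likelihood ratio test 2 and 3, no filter on low counts 3 and 7, and cells thinned to 1000 UMIs called 1 in mesenchyme. Leaving out each library gave 1 to 6 and 4 to 14. Against 55 calls over the populations, DESeq2 gave 29, no filter 128 and leaving out each library 78 to 216. Over the populations the median log2 fold change of the listed genes was -0.19 without DTA- replicate 1 and 0.57 without DTA- replicate 2. Shares of all genes called under these alternatives are not reported here, so the counts cannot be set against genes in general. The *Coch*/*Meox2* cluster had 16 calls, 7 with DESeq2 and 12 to 28 with a library left out. The *Thbd*/*Ptgis* cluster had 13, and 4 with DESeq2, 8 without an upper UMI limit and 7 to 21 with a library left out. The *Cpm*/*Hs3st3b1* cluster had 12, and 24 without a filter, 7 with the highest doublet scores left out and 11 to 19 with a library left out. Corpus cavernosum-like cells had 4, and 1 with DESeq2, 2 without TMM, 0 without a filter and 5 to 18 with a library left out. Interaction calls, 3 in all, numbered 6 to 9 with a library left out. The difference in immediate early share ranged from -0.305 to 0.709 percentage points.

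Labels give the same replicate numbers to both genotypes but do not say that a number marks a shared litter or day, and same-numbered libraries deviated in opposite ways (correlation -0.443 over 6228 genes). A replicate block gave 4 calls in all kept cells, 4 in mesenchyme, 107 over the populations and 19 in the *Cpm*/*Hs3st3b1* cluster. The crossed pairing as a block, added after seeing the data, gave 11, 6, 138 and, in corpus cavernosum-like cells, 15. For either block the share of all genes called is not reported here.

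Near-zero log2 fold changes turned sign. *Fosb* was -0.0038 with DESeq2, -0.0077 without a filter and -0.0114 without an upper limit (-0.0048 in mesenchyme). *Jund*, in all kept cells and mesenchyme, was 0.048 and 0.051 without TMM, 0.0032 and 0.011 with the replicate block, 0.0031 and 0.011 with the crossed block, 0.024 and 0.020 in thinned cells, and 0.0027 in mesenchyme without an upper limit. *Atf3* was 0.040 and 0.024 with the 2 blocks and 0.055 without an upper limit. *Cebpb* was -0.094 and -0.054 in thinned cells.

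With a library left out, the log2 fold changes in all kept cells, and then in mesenchyme, ranged as follows. *Fos* went from -0.20 to 1.15 (-0.19 to 1.16), *Fosb* from -0.61 to 1.07 (-0.60 to 1.08), *Fosl2* from -0.31 to 0.51 (-0.31 to 0.53) and *Jun* from -0.53 to 0.095 (-0.54 to 0.078). *Junb* went from -0.15 to 0.69 (-0.13 to 0.71), *Jund* from -0.29 to 0.29 (-0.28 to 0.30), *Atf3* from -1.08 to 1.201 (-1.78 to 1.01) and *Egr1* from -0.20 to 1.14 (-0.19 to 1.14). *Klf4* went from -0.69 to 0.25 (-0.71 to 0.24), *Klf6* from -0.58 to 0.11 in all kept cells, *Nr4a1* from -0.29 to 1.13 (-0.28 to 1.15) and *Btg2* from -0.18 to 0.73 (-0.16 to 0.75). *Ier2* went from -0.073 to 0.26 (-0.071 to 0.25), *Gadd45b* from -0.30 to 1.15 (-0.33 to 1.17), *Dusp1* from -0.086 to 0.82 (-0.086 to 0.85), *Nfkbia* from -0.72 to 0.15 (-0.86 to 0.052) and *Cebpb* from -0.26 to 0.37 (-0.27 to 0.46). *Nr4a2*, *Ier3*, *Ier5*, *Socs3*, *Cebpd*, *Hspa1a*, *Hspa8*, *Hsp90aa1* and *Dnaja1* kept their sign in both sets of cells under these 4 omissions. For all but *Hspa1a* the levels in all kept cells did not overlap between genotypes, so an omission could hardly turn the sign there. Clusters without a match under another clustering gave no value. Depth limits rare genes, with *Egr2* at no more than 12.4 CPM. The cause of none of these changes was tested.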

Other observations

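Barcodes left out of the comparisons also held these messages. In barcodes with 1000 or fewer UMIs the immediate early share was 0.358% in DTA- replicate 1, 0.863% in DTA- replicate 2, 0.831% in DTA+ replicate 1 and 0.744% in DTA+ replicate 2, below the share in kept cells of the same library in each case. In barcodes over the hemoglobin limits, mostly red blood cells, it was 0.0193 to 0.0358%, the lowest of any set of barcodes examined.

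The 3 other named populations, small or uneven, were too thin to test. Subdermal prepuce-like cells, numbering 264 and 820 in DTA- and 44 and 19 in DTA+, had an immediate early share of 1.19% and 2.77% in DTA- and 2.87% and 2.21% in DTA+. General prepuce-like cells, with 34 and 16 cells in DTA- and 793 and 631 in DTA+, had 0.782% and 1.83% in DTA- and 1.84% and 1.74% in DTA+. Smooth muscle-like cells had 1.17%, 2.57%, 2.11% and 1.29% in the same order, with 10 cells in DTA+ replicate 2. DTA- replicate 1 had the lowest share in these 3 as well.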
